A study of Mus musculus with 6 samples.

Results

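The TNF superfamily is a group of cytokines, mostly made as membrane proteins that can be cut off the cell, and their receptors are a matching family. TNF itself is a main inflammatory product of activated macrophages. It binds 2 receptors, TNFR1, which carries a death domain and is found on most cells, and TNFR2, which is found mainly on immune and endothelial cells. Described here are 9 genes of this family, chosen by name from the 23302 genes of the table, in macrophages from malignant pleural effusions (MPEs) of mice. The 7 ligand genes are Tnf, Tnfsf9 (4-1BB ligand), Tnfsf10 (TRAIL), Tnfsf12 (TWEAK), Tnfsf13 (APRIL), Tnfsf13b (BAFF) and Tnfsf14 (LIGHT). The 2 receptor genes are Tnfrsf1a, which encodes TNFR1, and Tnfrsf1b, which encodes TNFR2.

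The macrophages came from 3 samples labelled IL-10-/- and 3 labelled WT. All mice were on the C57BL/6 background, were 6 to 8 weeks old and carried MC38 cells, a mouse colon carcinoma line, that had been put into the pleural cavity 10 days earlier. IL-10-/- and WT mice came from different suppliers, so genotype and supplier cannot be told apart. Mononuclear cells of the effusion were separated on a Ficoll gradient, F4/80+ cells were taken with magnetic beads, and the protocol also names culture in serum-containing medium, without saying for how long. The labels number the mice, but whether 1 mouse or several gave a library is not stated, and p-values therefore describe the spread between libraries only. The comparison of MPE macrophages from IL-10-/- and WT mice asks how the loss of IL-10, a cytokine known to restrain inflammatory gene expression in macrophages, goes with their expression profile.

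Values are FPKM, that is fragments counted for a gene divided by its transcript length and by the mapped fragments of the library. Levels of different genes can thus be compared per length. Depth per library is unknown. The FPKM of all genes summed to between 885310 and 1055850 in libraries labelled IL-10-/- and between 918861 and 1125020 in the WT libraries, and between 11602 and 11935 genes had at least 1 FPKM. Il10 went against the labels as a loss of transcript. It had 59.2, 62.0 and 42.4 FPKM in libraries labelled IL-10-/-, against 6.43, 33.3 and 7.33 FPKM in the WT libraries. Its adjusted p from limma was 0.14, and between 0.0049 and 0.43 over 15 alternative settings of the fit. It was called in 1 of these, without WT replicate 2 (adjusted p = 0.0049 from limma). FPKM per gene cannot tell an intact Il10 mRNA from a truncated product of a targeted allele, and the groups are named by their labels throughout. In libraries labelled IL-10-/- 72 genes rose and 57 fell, that is 1.09% of the 11838 genes tested at an adjusted p under 0.05.

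None of the 9 genes passed the test between the groups. Of these, 8 had at least 1 FPKM in at least 3 libraries and were tested. Of the 8, 0 had an adjusted p under 0.05 from limma, against 1.09% of all genes tested. At an unadjusted p under 0.05 the count was also 0 of 8, against 10.8% of all genes tested. The log2 fold change (libraries labelled IL-10-/- minus WT) was above 0 for 3 genes and below 0 for 5, with a median of -0.10, against -0.0025 over all genes tested. Tnfsf10, the only member that was not tested, was also the only member whose groups did not overlap, a pattern that 15.4% of all genes tested had. By the highest over the lowest FPKM of the 6 libraries, the receptors and Tnfsf14 varied least and Tnfsf9, Tnfsf10, Tnfsf13b and Tnf most (at least 3.16-fold).

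**Figure D1:**
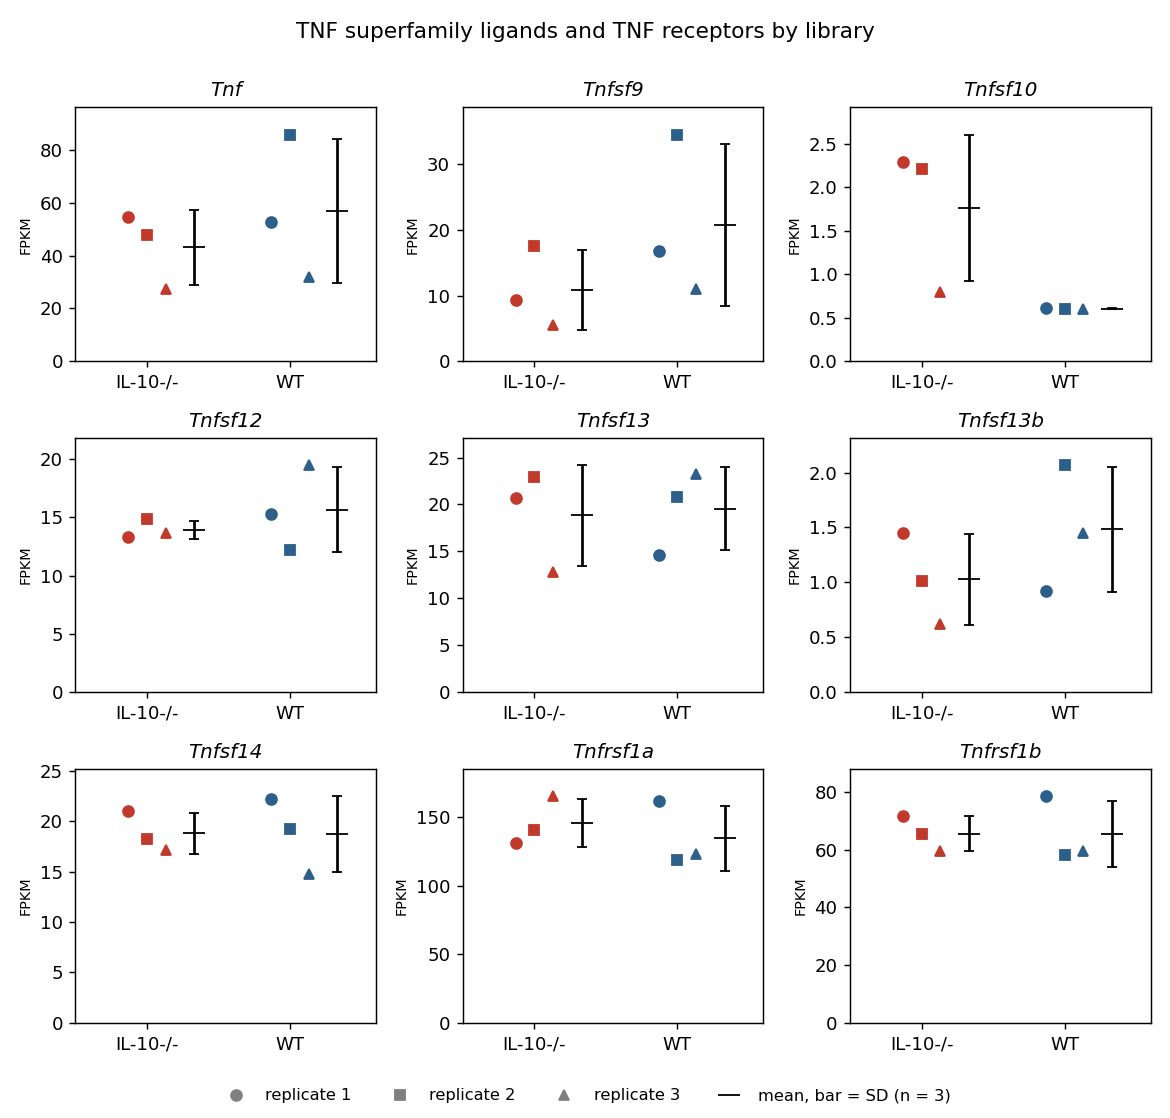
FPKM of the 9 genes in each library (points, shape by replicate number) with the mean and SD of each group (n = 3), libraries labelled IL-10-/- on the left and WT libraries on the right of each panel. Each vertical axis starts at 0 and has its own range. The groups overlap in every panel except that of Tnfsf10, where the libraries labelled IL-10-/- sit between 0.796 and 2.29 FPKM and the WT libraries near 0.60 FPKM.

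By level the genes formed 4 steps. Tnfrsf1a was the highest, with a mean of 140 FPKM over the 6 libraries, and only 4.16% of the genes in the table had a higher mean. It lay above Tnfrsf1b in 6 of 6 libraries, and the ranges of both receptors did not overlap. Tnfrsf1b (65.5 FPKM) and Tnf (50.01 FPKM) came next, with overlapping ranges, Tnfrsf1b being higher in 5 of 6 libraries. Tnfsf13 (19.2 FPKM), Tnfsf14 (18.8), Tnfsf9 (15.8) and Tnfsf12 (14.8) formed the third step, in which no neighbour differed from the next beyond the spread of the libraries. Tnfsf13b (1.26 FPKM) and Tnfsf10 (1.18 FPKM) were lowest, and each exceeded the other in 3 of 6 libraries. Their means lay near the middle of the table, with 48.8% and 49.2% of its genes above them.

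TNF, the ligand that gives the family its name, is the best known product of this group in macrophages, and its mRNA is short-lived. Tnf lies on chr17:35199381-35202007 (GRCm38, minus strand, 4 exons). It had 54.5, 47.8 and 27.2 FPKM in libraries labelled IL-10-/-, against 52.8, 85.8 and 31.9 FPKM in the WT libraries. The groups overlapped, WT replicate 2 held the highest level and IL-10-/- replicate 3 the lowest. The means were 43.2 ± 14.2 FPKM in libraries labelled IL-10-/- and 56.9 ± 27.2 FPKM in WT (SD, n = 3 each). This is a log2 fold change of -0.34 (standard error 0.37, 95% interval -1.19 to 0.52, adjusted p = 0.85 from limma). It was 0.011 without WT replicate 2, so the direction of this difference rests on that library.

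The 3′ untranslated region of Tnf holds a known AU-rich element, through which proteins such as tristetraprolin shorten the life of the mRNA. In the annotated transcript (GENCODE release M21, GRCm38) the 764 bases after the stop codon held 8 copies of ATTTA, or 10.5 copies per kilobase, a density that 1.2% of 20732 genes with such a region reached. The densest stretch, from base 437 to base 466 after the stop codon, is shown because it holds 5 of the 8 copies, which are in capitals.
Tnf AU-rich stretch: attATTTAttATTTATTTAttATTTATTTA
Tnfsf9 came next in density among the members, with 2 copies in 253 bases (7.91 per kilobase, reached by 2.53% of genes). Tnfsf10 had 8 copies, as many as Tnf, a number that 9.38% of genes reached, and Tnfsf13b had 6. Their regions were much longer, at 3998 and 3631 bases, which gives 2.0 and 1.65 copies per kilobase. The other members had at most 2 copies, and Tnfsf13 and Tnfrsf1a had 0. The count of ATTTA was chosen after the expression values had been seen and is a description of the sequence only.

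Promoter windows (RefSeq, GRCm38.p6, 250 bases before to 50 after a start site) were found for 7 of the 9 genes, 8 windows in all, since Tnfsf13b has 2. The Tnf window is shown because it is a well studied promoter and holds the TATA box of the gene. Matches are in capitals, in the order of the sequence those to GAGGAA (core of a PU.1 site, from -117), GGGCGG (GC box, from -49) and TATAAA (the TATA box, from -29 relative to the start site at +1), the first and second on the opposite strand.
Tnf promoter, chr17:35201958-35202257, minus strand: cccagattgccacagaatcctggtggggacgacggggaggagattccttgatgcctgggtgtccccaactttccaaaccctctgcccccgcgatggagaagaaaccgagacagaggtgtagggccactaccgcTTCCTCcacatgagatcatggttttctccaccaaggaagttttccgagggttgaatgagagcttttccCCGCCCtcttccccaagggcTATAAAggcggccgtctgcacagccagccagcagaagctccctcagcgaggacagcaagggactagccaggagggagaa
Of all 32851 windows of this length, searched on both strands, 13.62% held TATAAA, 35.66% GGGCGG and 28.28% GAGGAA. Among the members' windows only that of Tnf held TATAAA, and no window held GGGNNTTCC or GGGANTTTC, the letters used here for sites of NF-kB, which 5.82% and 1.11% of all windows held, or TGACGTCA (a CRE), which 1.79% held. A match is no evidence of binding, and a window without one says only that these letters are not in it.

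4-1BB ligand, encoded by Tnfsf9, is a costimulatory protein that activated antigen-presenting cells show to T cells bearing 4-1BB. Tnfsf9 lies on chr17:57105385-57107757 (plus strand, 3 exons) and overlaps the antisense gene Gm11110, so that fragments of the pair may not have been told apart. It had 9.35, 17.5 and 5.58 FPKM in libraries labelled IL-10-/-, against 16.7, 34.5 and 10.9 FPKM in the WT libraries. The groups overlapped, since IL-10-/- replicate 2 lay above WT replicates 1 and 3. The highest library exceeded the lowest 6.18-fold, the widest spread among the 9 genes. The mean was 10.8 ± 6.10 FPKM in libraries labelled IL-10-/- and 20.7 ± 12.3 FPKM in WT. The log2 fold change of -0.86 (standard error 0.46, 95% interval -1.92 to 0.20) was the largest in size among the 8 tested members and missed the threshold (adjusted p = 0.60 from limma; exact two-sided permutation test over 3 against 3 libraries p = 0.3). It stayed below 0 in the 11 of 15 alternative settings that can move the estimate, between -1.25 and -0.43, and over all 15 the adjusted p from limma lay between 0.081 and 0.89.

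Tnf and Tnfsf9 shared the same extreme libraries, WT replicate 2 at the top and IL-10-/- replicate 3 at the bottom. Immediate early genes, which are switched on within minutes of stimulation or handling of cells and include Junb, summed to 3559, 1903 and 2395 FPKM in libraries labelled IL-10-/-, against 3368, 4012 and 3566 FPKM in the WT libraries. WT replicate 2 was highest there too, while the lowest sum was that of IL-10-/- replicate 2. None of the 10 immediate early genes passed the test. At an unadjusted p under 0.05, 4 were lower, against 10.8% of all genes tested that were past it. The part of the immediate early genes in the levels of Tnf and Tnfsf9 was not tested. By root mean square difference of centred log2(FPKM + 1) over the 6 libraries, the profiles nearest to that of Tnf were Id3 (0.16) and Nfkbiz (0.16), among 1060 genes that varied at least 0.8 times as much. The profiles nearest to that of Tnfsf9 were the immunoglobulin segment Ighv9-3 (0.33), which had at most 3.60 FPKM, and Il1a (0.35), among 391 such genes.

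TRAIL, encoded by Tnfsf10, is a ligand that can trigger apoptosis in tumour cells through death receptors. Tnfsf10 lies on chr3:27317028-27342427 (plus strand, 5 exons) and was low. It had 2.29, 2.21 and 0.796 FPKM in libraries labelled IL-10-/-, against 0.609, 0.600 and 0.602 FPKM in the WT libraries. All libraries labelled IL-10-/- lay above all WT libraries, but IL-10-/- replicate 3 was close to the WT level, and the WT libraries were nearly equal. The means were 1.77 ± 0.841 FPKM in libraries labelled IL-10-/- and 0.603 ± 0.00475 FPKM in WT. With only 2 of 6 libraries at 1 FPKM or more, Tnfsf10 missed the filter and was not tested with the other genes. The exact two-sided permutation test gave p = 0.1, the smallest that 3 against 3 libraries allow. In a fit without the filter the log2 fold change was 0.73 on the scale of log2(FPKM + 1), where changes of low genes appear too small (standard error 0.26, 95% interval 0.082 to 1.39) and the adjusted p from limma was 0.55.

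The profiles nearest to that of Tnfsf10 were Itpr1 (root mean square difference 0.045), a calcium channel of the endoplasmic reticulum, and Slc2a6 (0.11), a sugar transporter, among 1448 genes. Itpr1 had 19.9, 19.0 and 10.0 FPKM in libraries labelled IL-10-/-, against 9.49, 8.52 and 9.34 FPKM in WT, a log2 fold change of 0.72 that missed the threshold (adjusted p = 0.30 from limma). Itpr1, a gene of higher level, also had IL-10-/- replicate 3 next to WT. It was picked for its likeness to Tnfsf10, so this shared pattern follows from the choice and is no support for the pattern of Tnfsf10. IL-10-/- replicate 3 was also the lowest in genes of resident cavity macrophages, such as Prg4: they summed to 766, 1171 and 216 FPKM in libraries labelled IL-10-/-, against 257, 992 and 624 FPKM in WT. WT replicate 1, which was low in them as well, had 0.609 FPKM of Tnfsf10, next to the other WT libraries. The part of these cells in the level of Tnfsf10 was not tested. In bulk RNA, fewer cells of a type and less RNA per cell cannot be told apart.

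TWEAK and APRIL are encoded by neighbouring genes on chromosome 11. Tnfsf12 lies on chr11:69686250-69695849 (minus strand, 7 exons) and Tnfsf13 on chr11:69682846-69685784 (minus strand, 6 exons). TWEAK acts on wound repair and vessels through Fn14, and APRIL acts on B cells and plasma cells through TACI and BCMA. Both genes overlap Tnfsfm13, a readthrough gene on their own strand, and the antisense gene Tnfsf13os, so the split of fragments among them is uncertain.

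Tnfsf12 had 13.3, 14.8 and 13.7 FPKM in libraries labelled IL-10-/-, against 15.2, 12.2 and 19.5 FPKM in the WT libraries. The libraries labelled IL-10-/- lay within the range of the WT libraries. The log2 fold change was -0.13 (standard error 0.18, 95% interval -0.55 to 0.28, adjusted p = 0.88 from limma). Tnfsf13 had 20.7, 23.0 and 12.8 FPKM in libraries labelled IL-10-/-, against 14.6, 20.8 and 23.2 FPKM in the WT libraries. The groups overlapped almost fully, and the log2 fold change was -0.07 (standard error 0.25, 95% interval -0.64 to 0.50, adjusted p = 0.96 from limma). The readthrough gene Tnfsfm13 had 7.77, 8.56 and 8.02 FPKM in libraries labelled IL-10-/-, against 9.87, 9.98 and 9.76 FPKM in WT. Its groups did not overlap, and it missed the threshold with -0.25 on the log2 scale (adjusted p = 0.56 from limma). The antisense gene Tnfsf13os had 2.72, 3.61 and 2.16 FPKM in libraries labelled IL-10-/-, against 3.56, 4.87 and 6.65 FPKM in WT, which overlapped (-0.64 on the log2 scale, adjusted p = 0.34 from limma). Summed over Tnfsf12, Tnfsf13 and Tnfsfm13, without Tnfsf13os, the level was 40.9 ± 6.00 FPKM in libraries labelled IL-10-/- and 45.1 ± 6.59 FPKM in WT (exact two-sided permutation test over 3 against 3 libraries, p = 0.5). Since FPKM are divided by the length of each gene, this sum does not undo a wrong split of fragments.

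BAFF, encoded by Tnfsf13b, is a survival factor of B cells made by myeloid cells, and it is a known interferon-responsive product of these cells. Tnfsf13b lies on chr8:10006467-10039072 (plus strand, 7 exons) and likewise overlaps an antisense gene, Gm44789. It had 1.45, 1.01 and 0.623 FPKM in libraries labelled IL-10-/-, against 0.926, 2.07 and 1.45 FPKM in the WT libraries. The groups overlapped, with the highest value in WT replicate 2 and the lowest in IL-10-/- replicate 3. On the log2 scale the difference was -0.28 (standard error 0.24, 95% interval -0.85 to 0.28, adjusted p = 0.79 from limma), and -0.49 with a pseudocount of 0.1 in place of 1 (adjusted p = 0.80 from limma). BAFF and APRIL share the receptors TACI and BCMA. The ratio of Tnfsf13b to Tnfsf13 was 0.0701, 0.0441 and 0.0487 in libraries labelled IL-10-/-, against 0.0632, 0.0993 and 0.0627 in WT, so that Tnfsf13 was the more abundant transcript per length in every library. The log2 ratio averaged -4.23 ± 0.352 in libraries labelled IL-10-/- and -3.77 ± 0.380 in WT, and the groups overlapped (exact two-sided permutation test over 3 against 3 libraries, p = 0.3).

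LIGHT, encoded by Tnfsf14, binds the herpesvirus entry mediator HVEM and the lymphotoxin beta receptor. Tnfsf14 lies on chr17:57189492-57194189 (minus strand, 4 exons), on the same chromosome as Tnf and Tnfsf9. It had 21.0, 18.2 and 17.1 FPKM in libraries labelled IL-10-/-, against 22.2, 19.2 and 14.8 FPKM in the WT libraries. The groups overlapped and their means were nearly equal, at 18.8 ± 2.02 FPKM in libraries labelled IL-10-/- and 18.7 ± 3.74 FPKM in WT. The difference on the log2 scale was 0.02 (standard error 0.18, 95% interval -0.39 to 0.42, adjusted p = 0.99 from limma).

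TNFR1, encoded by Tnfrsf1a, passes the TNF signal on to NF-kB or to cell death. Tnfrsf1a lies on chr6:125349362-125362484 (plus strand, 10 exons). It had 131, 141 and 165 FPKM in libraries labelled IL-10-/-, against 162, 119 and 123 FPKM in the WT libraries. The groups overlapped, IL-10-/- replicate 3 held the highest level, and the lowest library was within 1.39-fold of the highest. The means were 146 ± 17.6 FPKM in libraries labelled IL-10-/- and 134 ± 23.7 FPKM in WT. Between the groups the log2 fold change was 0.12 (standard error 0.17, 95% interval -0.27 to 0.51, adjusted p = 0.89 from limma).

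TNFR2, encoded by Tnfrsf1b, has no death domain and binds TRAF2. Tnfrsf1b lies on chr4:145213463-145246870 (minus strand, 10 exons). It had 71.7, 65.3 and 59.7 FPKM in libraries labelled IL-10-/-, against 78.6, 58.2 and 59.6 FPKM in the WT libraries. It was the steadiest of the 9 genes, with 1.35-fold between the lowest and the highest library. Its means were 65.5 ± 6.00 FPKM in libraries labelled IL-10-/- and 65.5 ± 11.4 FPKM in WT. Between the groups the difference was 0.01 on the log2 scale (standard error 0.16, 95% interval -0.36 to 0.38, adjusted p = 0.99 from limma).

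Within a library, the ratio of Tnfrsf1b to Tnfrsf1a was 0.547, 0.463 and 0.361 in libraries labelled IL-10-/-, against 0.486, 0.489 and 0.486 in WT. It was nearly the same in all WT libraries and spread on both sides of that value in libraries labelled IL-10-/-. The log2 ratio averaged -1.15 ± 0.302 in libraries labelled IL-10-/- and -1.04 ± 0.00607 in WT, a difference of -0.11 that did not exceed the spread (exact two-sided permutation test over 3 against 3 libraries, p = 0.7). It was 0.049 without IL-10-/- replicate 3, which had the lowest ratio, so the direction rests on that library.

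**Figure D2:**
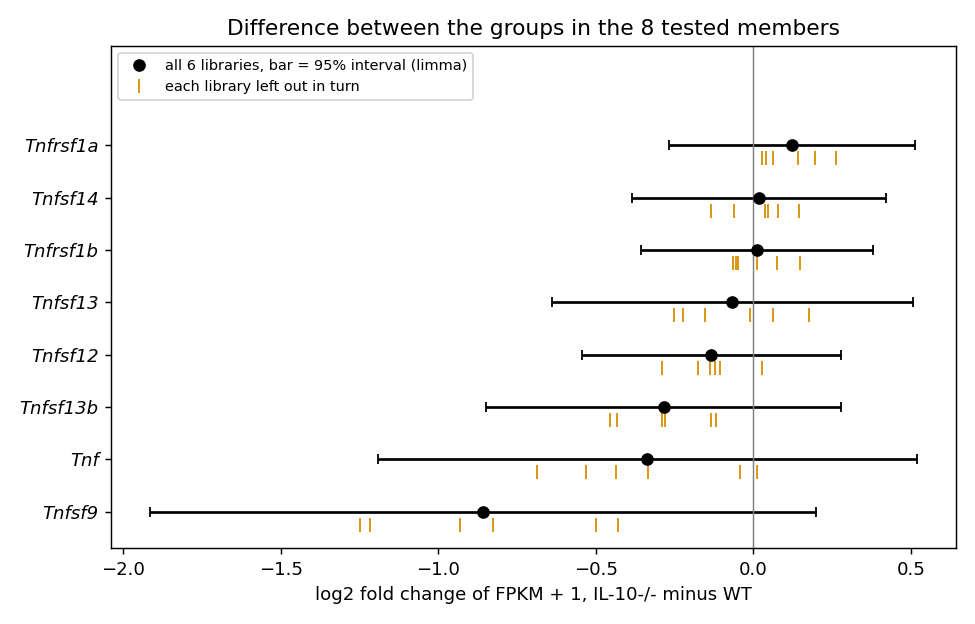
Log2 fold change of FPKM + 1 (libraries labelled IL-10-/- minus WT, horizontal axis) of the 8 tested genes, as points with their 95% intervals from limma on all 6 libraries, and as ticks with each library left out in turn. Every interval includes 0, and the ticks of Tnfsf9, Tnfsf13b and Tnfrsf1a stay on 1 side of it, from -1.25 to -0.43 for Tnfsf9.

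Interferon-response genes were the context in which the members could be set against a list that changed. Of 15 such genes, 5 rose in libraries labelled IL-10-/- (Cmpk2, Gbp2, Ifit1, Mx1 and Usp18), against calls for 1.09% of all genes tested. At an unadjusted p under 0.05, 13 were higher, against 10.8% of all genes tested that were past it. The 15 genes summed to between 2007 and 2210 FPKM in libraries labelled IL-10-/-, against between 1063 and 1114 FPKM in WT. Tnfsf10 and Tnfsf13b are both known as interferon-responsive in other settings. Tnfsf10 was not tested and lay higher in all 3 libraries labelled IL-10-/-, while Tnfsf13b was tested, did not pass and was below 0 in log2 fold change. By library, the interferon list summed to 2007, 2210 and 2160 FPKM in libraries labelled IL-10-/-. Gbp2, the largest part of this sum, had 565, 725 and 783 FPKM in these libraries. Usp18 had 32.3, 29.8 and 16.9 FPKM, with its lowest value of the 3 in IL-10-/- replicate 3. All 15 genes lay above WT in every library labelled IL-10-/-, a separation that 15.4% of all genes tested had in either direction. That holds for IL-10-/- replicate 3 too, where Tnfsf10 had 0.796 FPKM, close to the WT level. Whether Tnfsf10 followed the interferon list was not tested. The letters GAAANNGAA, used here for an interferon-stimulated response element (ISRE), stood in 2 of the 8 windows, 1 of Tnfsf13b and that of Tnfrsf1b, and in 8.56% of all windows. These windows are shown because neither gene passed the test at the transcript level, while genes of the interferon list did.
Tnfsf13b promoter, chr8:10006383-10006682, plus strand: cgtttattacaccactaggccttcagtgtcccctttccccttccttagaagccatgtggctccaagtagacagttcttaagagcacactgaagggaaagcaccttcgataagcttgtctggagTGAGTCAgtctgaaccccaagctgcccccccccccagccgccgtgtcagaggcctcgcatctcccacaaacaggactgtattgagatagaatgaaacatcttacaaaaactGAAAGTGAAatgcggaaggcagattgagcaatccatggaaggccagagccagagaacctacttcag
Tnfrsf1b promoter, chr4:145246821-145247120, minus strand: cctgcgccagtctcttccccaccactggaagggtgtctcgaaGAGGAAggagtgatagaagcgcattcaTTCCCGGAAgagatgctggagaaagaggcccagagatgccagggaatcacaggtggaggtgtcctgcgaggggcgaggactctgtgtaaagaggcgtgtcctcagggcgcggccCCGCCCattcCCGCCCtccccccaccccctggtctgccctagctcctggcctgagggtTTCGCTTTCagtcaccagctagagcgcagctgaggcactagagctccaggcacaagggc
In the Tnfsf13b window the capitals mark TGANTCA (AP-1, from -127) and the ISRE letters (from -16). In the Tnfrsf1b window they mark, in order, GAGGAA (from -208), TTCNNNGAA (a STAT site of the GAS type, from -181), GGGCGG on the opposite strand (from -67 and from -57) and the ISRE letters on the opposite strand (from -9). TGANTCA stood in the windows of 3 genes (Tnfsf13, Tnfsf13b and Tnfsf14, where both overlapping windows of Tnfsf13b hold the same site) and in 7.81% of all windows, and GGGCGG and GAGGAA also stood in those of 3 genes each. The TTCNNNGAA pattern stood in the windows of Tnfrsf1a and Tnfrsf1b and in 8.30% of all windows, and that of Tnfsf10 held only CCAAT, which 37.41% of all windows held.

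The rest of the superfamily had no call either. Of the 18 ligand genes measured, 8 had a mean under 1 FPKM, among them Cd40lg, Cd70, Lta and Tnfsf11. Ltb, a lymphotoxin subunit, was the only other ligand at the level of the third step, and its log2 fold change was 0.25 (adjusted p = 0.85 from limma). The 3 tested ligands outside the members gave 0 calls, and 1 was lower at an unadjusted p under 0.05. That was Tnfsf4, the OX40 ligand, with 1.11, 1.14 and 1.17 FPKM in libraries labelled IL-10-/-, against 1.57, 1.82 and 2.50 FPKM in WT (a difference of -0.46 on the log2 scale, adjusted p = 0.42 from limma). Fasl, a ligand of T and NK cells, reached 3.76 FPKM in IL-10-/- replicate 1 and at most 1.83 FPKM elsewhere, and that library also had the highest sum of T cell genes, 146 FPKM, against at most 72.0 FPKM in any other. The NK cell genes summed to 229 FPKM there and to 243 FPKM in WT replicate 3, where Fasl had 1.08 FPKM. The part of these cells in the level of Fasl was not tested.

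**Figure D3:**
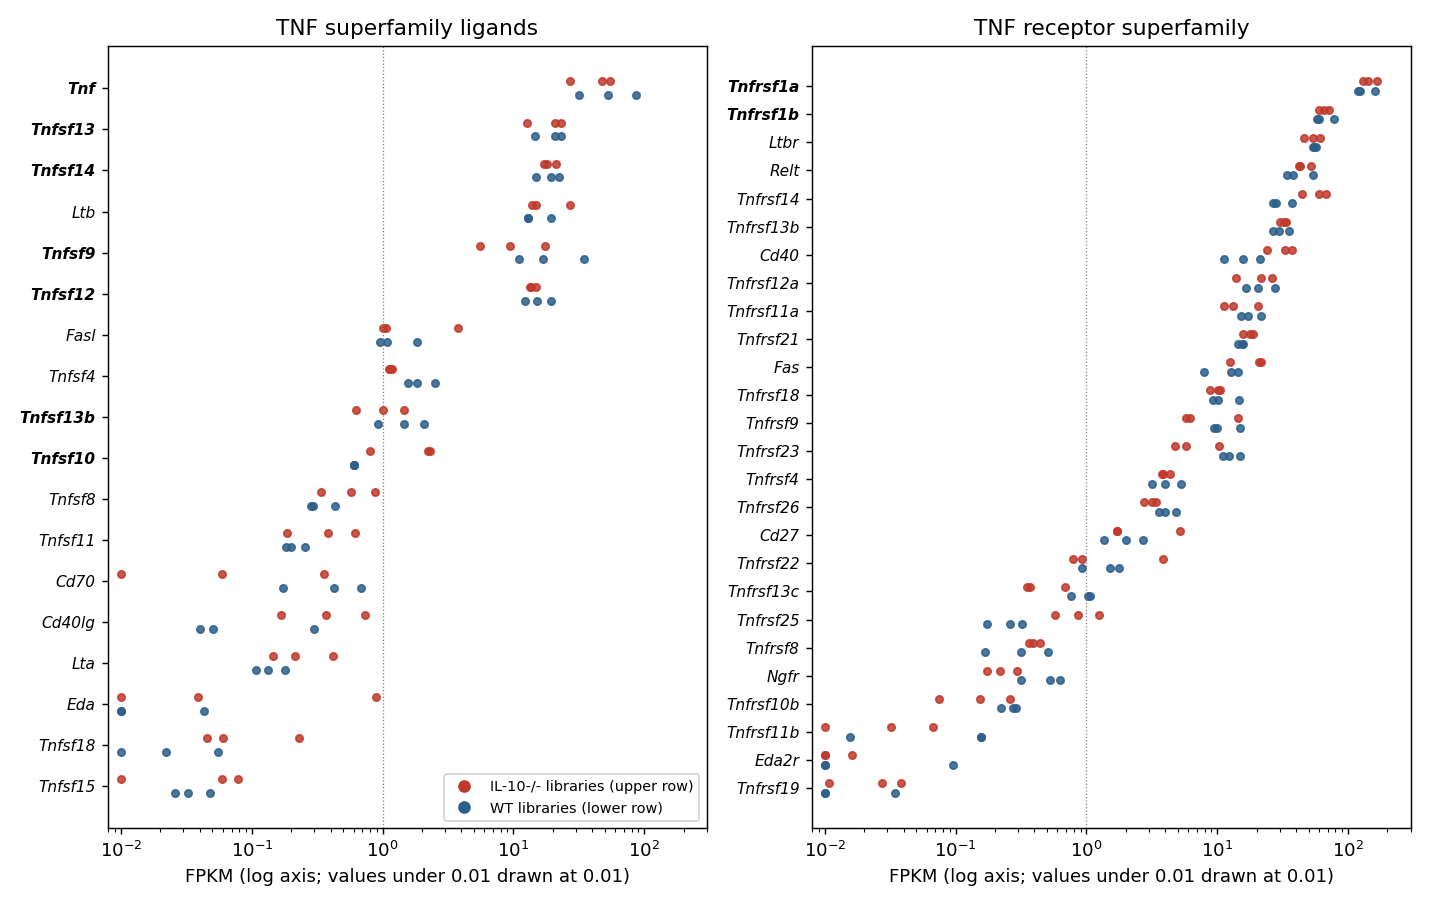
FPKM of 18 TNF superfamily ligands (left) and 26 receptors (right) in each library on a log axis, libraries labelled IL-10-/- in the upper row of each gene and WT libraries in the lower row, ordered by mean and with the 9 members in bold. The dotted line is at 1 FPKM. Tnf heads the ligands at 50.01 FPKM and Tnfrsf1a the receptors at 140 FPKM, and Tnfsf13b and Tnfsf10 lie beside the line.

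Of the receptors through which the member ligands act, 11 were in the table, 8 were tested and 0 were called, and Tnfrsf10b, Tnfrsf13c and Tnfrsf11b had means under 1 FPKM. At an unadjusted p under 0.05, 1 was higher and 1 was lower. Tnfrsf14, which encodes HVEM, the receptor of LIGHT, had 67.7, 59.6 and 44.6 FPKM in libraries labelled IL-10-/-, against 37.0, 26.4 and 28.0 FPKM in WT. The groups did not overlap and the log2 fold change was 0.88 (standard error 0.20, 95% interval 0.43 to 1.34), with an adjusted p of 0.10 from limma. Without IL-10-/- replicate 3 and WT replicate 1, the libraries low in resident cavity macrophage genes, it was 1.19 and passed the test (adjusted p = 0.018 from limma). Over the 15 alternative settings its adjusted p lay between 0.0093 and 0.35, with 2 calls. Tnfrsf23, a mouse decoy receptor of TRAIL, had 4.78, 5.78 and 10.2 FPKM in libraries labelled IL-10-/-, against 14.8, 12.2 and 11.1 FPKM in WT. These groups did not overlap either (log2 fold change -0.84, standard error 0.25, adjusted p = 0.22 by limma). Leaving out IL-10-/- replicate 3 gave -1.12, with an adjusted p of 0.048 from limma (between 0.041 and 0.58 over the 15 settings, with 3 calls). Tnfrsf10b, the death receptor of TRAIL in the mouse, stayed under 0.3 FPKM in all libraries.

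Among 9 other tested receptors of the family 0 were called and Cd40 alone was higher at an unadjusted p under 0.05. Cd40, which receives help from T cells, had 37.5, 32.8 and 24.1 FPKM in libraries labelled IL-10-/-, against 11.3, 15.8 and 21.1 FPKM in WT. The groups did not overlap (log2 fold change 0.95, standard error 0.24, adjusted p = 0.15 from limma, between 0.043 and 0.43 over the 15 settings, with 1 call). Fas, the death receptor of FAS ligand, was next (0.60, adjusted p = 0.48 from limma).

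None of the TNF pathway genes passed the test either. Over 9 lists of receptors, signalling partners and targets, 0 of 108 tested genes had an adjusted p under 0.05 from limma. Of all genes tested 1.09% had one, so 0 calls says little about these lists. The median log2 fold change of the 108 genes was -0.0031. At an unadjusted p under 0.05, 12 were higher and 8 lower, that is 18.5%, against 10.8% of all genes tested. The count of calls was 0 in both directions in 10 of the 15 alternative settings and at most 6 higher and 3 lower in the others.

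In the TNF receptor complex, which holds the adaptors and kinases that TNFR1 recruits, 1 of 23 genes was higher and 1 lower at an unadjusted p under 0.05, with a list median of -0.06. These were Traf5, an adaptor (0.49, adjusted p = 0.37 from limma), and Tab3, a subunit of the TAK1 kinase complex (-0.50, adjusted p = 0.22 from limma). In the death branch, the caspases and necroptosis genes downstream of TNFR1, 4 of 10 were higher at an unadjusted p under 0.05 and 0 lower, with a median of 0.15. Mlkl, the effector of necroptosis, had 35.8, 34.8 and 30.5 FPKM in libraries labelled IL-10-/-, against 20.8, 22.9 and 22.3 FPKM in WT (log2 fold change 0.59, standard error 0.13, adjusted p = 0.097 from limma). Bid, which links caspase-8 to mitochondria, had 18.6, 22.5 and 19.9 FPKM in libraries labelled IL-10-/-, against 13.4, 13.6 and 12.9 FPKM in WT (0.57, adjusted p = 0.11 from limma). Both were separated between the groups, as 15.4% of all genes tested were, without passing the test. Among the 15 alternative settings both passed it only with array weights (adjusted p from limma 0.021 for Mlkl and 0.027 for Bid). In that setting the calls over all genes also went from 72 to 248 higher and from 57 to 234 lower. None of 11 feedback genes was past an unadjusted p of 0.05, and the nearest were Nfkbie (0.28, adjusted p = 0.52 from limma) and Nfkbia (-0.47, adjusted p = 0.63 from limma), both inhibitors of NF-kB.

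Of the genes that cut ligands from the membrane, 7 of 10 were tested and 1 was higher at an unadjusted p under 0.05. That was Sppl2a, a protease that cleaves the membrane stub of TNF (0.40, adjusted p = 0.36 from limma). Adam17, the enzyme that releases TNF, had 38.7, 32.5 and 34.2 FPKM in libraries labelled IL-10-/-, against 35.9, 23.9 and 21.0 FPKM in WT, which overlapped (0.40, adjusted p = 0.56 from limma). Of 13 regulators of the Tnf mRNA, 1 was higher at an unadjusted p under 0.05, Mapk14, the p38 kinase that stabilizes it (0.35, adjusted p = 0.43 from limma). Zfp36l1, a relative of tristetraprolin, followed with -0.39 (adjusted p = 0.54 from limma).

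Genes known to be induced by TNF lay on both sides of 0 without a call, 3 of 24 higher and 5 lower at an unadjusted p under 0.05, with a median of -0.09. Cxcl10, a chemokine that interferons also induce, had 79.6, 84.6 and 58.1 FPKM in libraries labelled IL-10-/-, against 18.6, 41.1 and 23.5 FPKM in WT. Its groups did not overlap, and its adjusted p came nearest to the threshold of all pathway genes (1.44 on the log2 scale, standard error 0.28, adjusted p = 0.067 from limma). Without WT replicate 2 it was 1.76 and passed the test (adjusted p = 0.026 from limma, between 0.017 and 0.29 over the 15 settings, with 3 calls). Csf1, the macrophage growth factor, had 9.91, 6.16 and 10.9 FPKM in libraries labelled IL-10-/-, against 14.1, 24.7 and 20.4 FPKM in WT (-1.05 on the log2 scale, standard error 0.26, adjusted p = 0.13 from limma). The groups did not overlap, and the WT library with the most Csf1 was again WT replicate 2.

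**Figure D4:**
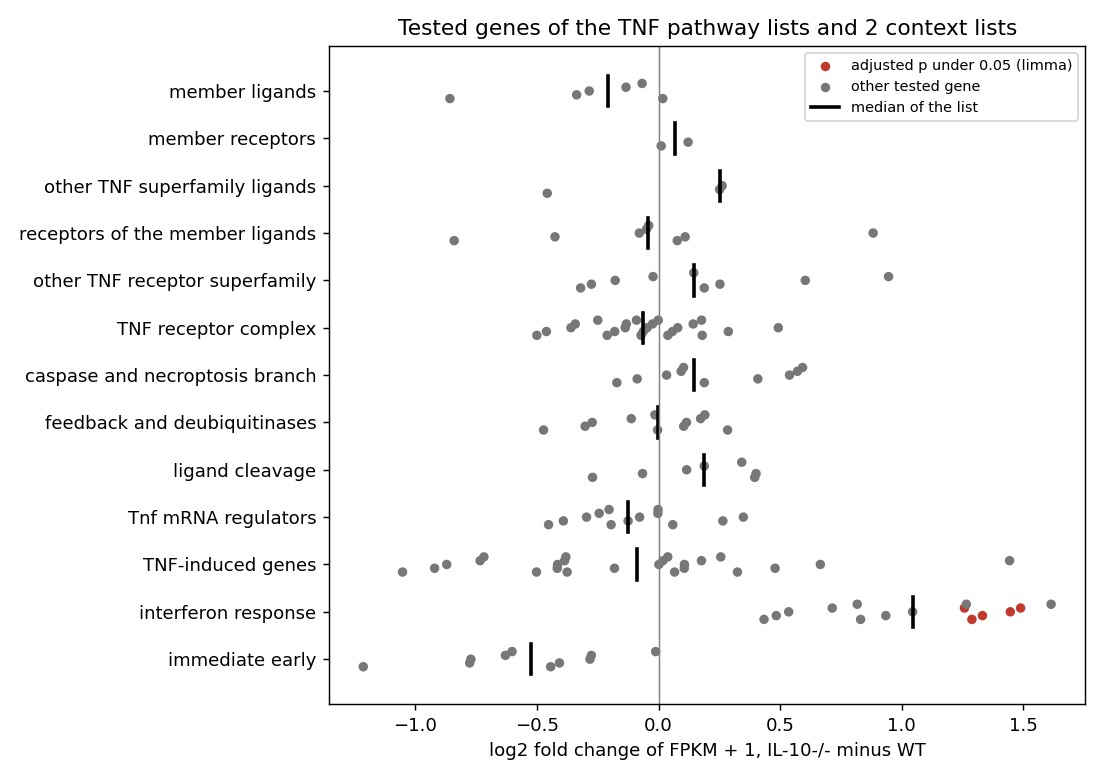
Log2 fold change of FPKM + 1 (libraries labelled IL-10-/- minus WT, horizontal axis) of each tested gene in the members, the 9 pathway lists and the interferon-response and immediate early lists, with the median of each list as a bar. Red points have an adjusted p under 0.05 from limma, and the only red points are 5 of the 15 interferon-response genes.

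Marker genes of other cells also differed between the groups. Of all genes tested, 1.09% passed the test, 10.8% had an unadjusted p under 0.05 and 15.4% did not overlap between the groups. Macrophage genes such as Lyz2 summed to between 11746 and 14897 FPKM in libraries labelled IL-10-/- and between 8398 and 10668 FPKM in WT, far above any lymphocyte list. However, 0 of 11 tested entries passed the test, and only 2 of the 11 did not overlap between the groups. Lyz2, the largest part of these sums, was 1 of the 2, with a mean of 7956 FPKM in libraries labelled IL-10-/- and 4493 FPKM in WT. Of 12 tested neutrophil genes such as S100a9, 6 were lower and passed the test. Of the 12, 8 did not overlap between the groups, and 2 were above 0 in log2 fold change. The listed neutrophil genes summed to 545 to 1216 FPKM in libraries labelled IL-10-/-, against 2992 to 4706 FPKM in WT. S100a9 was a large part of these sums, with a mean of 298 FPKM in libraries labelled IL-10-/- and 1784 FPKM in WT. Platelet genes such as Pf4 summed to between 482 and 935 FPKM in libraries labelled IL-10-/-, against between 2594 and 3300 FPKM in WT. Pf4 was the largest part of this sum, with a mean of 609 FPKM in libraries labelled IL-10-/- and 2563 FPKM in WT. Only 2 of the 6 listed platelet genes were tested, and both were lower. The rest missed the filter, and some of them overlapped between the groups. Classical monocyte genes such as Plac8 summed to between 9153 and 13237 FPKM in libraries labelled IL-10-/-, against between 5687 and 8250 FPKM in WT (1 of 8 rose). Only 4 of the 8 monocyte genes did not overlap between the groups, 4 were higher at an unadjusted p under 0.05 and 6 were above 0. Plac8 was a large part of this sum, with a mean of 4339 FPKM in libraries labelled IL-10-/- and 2114 FPKM in WT. The summed levels of B cell genes (15.3 to 38.0 FPKM in libraries labelled IL-10-/-, against 48.3 to 56.7 FPKM in WT) and of dendritic cell genes (42.3 to 56.1, against 60.9 to 103 FPKM in WT) did not overlap between the groups, though 0 of these genes passed the test in limma (5 B cell and 3 dendritic cell genes were lower at an unadjusted p under 0.05). Their most abundant genes were Cd79a, whose groups did not overlap, and Ccr7, whose groups did. The summed T cell genes overlapped (68.8 to 146 FPKM in libraries labelled IL-10-/-, against 49.8 to 70.5 FPKM in WT), and 0 of 10 passed the test, but 9 were above 0 in log2 fold change (median 0.71) and 5 were higher at an unadjusted p under 0.05. Lat, Cd3g, Cd4, Cd5 and Cd8a did not overlap between the groups, and Cd2, the most abundant, did. The summed NK cell genes, led by Gzma, and epithelial genes, led by Cdh1, overlapped, although Cdh1 itself was lower in all libraries labelled IL-10-/- than in WT without passing the test (log2 fold change -0.61, adjusted p = 0.32 from limma). Mesothelial genes such as Msln stayed at 5.13 FPKM or less in sum. No marker was at 0 in all libraries, and the part of these cells in the levels of the TNF superfamily genes was not tested.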

How the data were processed

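RNA of F4/80+ MPE macrophages (3 libraries labelled IL-10-/-, 3 WT, grouped by the genotype in the labels) was poly(A)-selected, prepared with a NEBNext Ultra kit and sequenced as paired ends. The authors deposited FPKM per gene and library. The submitters' notes name the build GRCm38. For the aligner, counting tool, annotation release and strand setting, nothing is given in the sources used here. Deposited columns of fold changes, p-values, q-values and up or down marks were not used.

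Genes that reached 1 FPKM in 3 or more of the 6 libraries were tested on log2(FPKM + 1) with limma 3.58.1 (variance trend, R 4.3.3), two-sided, with Benjamini-Hochberg adjustment over all 11838 genes. Ratios and single values were compared by exact two-sided permutation over libraries. Code was tested on simulated data. FPKM keep no read totals, so precision rests on the spread between 3 libraries.

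The members and gene lists (9 pathway, 2 context, 11 cell type) were chosen with earlier results of these data known. Named genes are the 9 members, each pathway list's called genes or else the 2 smallest p, the most abundant gene of each context and cell list, and the 2 profiles nearest to each of the 3 most variable members. Coordinates are the deposited ones. Exons come from GENCODE M21 and promoters from RefSeq (GRCm38.p6). Tnfrsf10b, Cd40lg, Cd70, Lta, Tnfsf11, Fasl, Tnfrsf13c, Tnfrsf11b, the T cell genes other than Cd2, the called interferon genes and the overlapping genes were named after their values were seen. Alternatives were a pseudocount of 0.1, no filter, a filter at 5 FPKM, quantile normalization, an equal sum per library, no variance trend, array weights, a replicate block, each library left out, and the libraries low in resident cavity macrophage genes left out. The sum over overlapping chromosome 11 genes was added after the data were seen.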

Additional observations from a re-analysis of the deposited data

How the results depend on the processing

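No member passed the test in any alternative setting in which it was tested (7 members in 15, Tnfsf13b in 14, Tnfsf10 in 1). In the 11 settings that can move a fold change, 78 of 88 values of the 8 members kept their direction; no filter, the filter at 5 FPKM, no variance trend and the replicate block leave it as it is. Leaving out each library in turn, the log2 fold change ranged between -0.69 and 0.011 for Tnf, -0.29 and 0.027 for Tnfsf12, -0.25 and 0.17 for Tnfsf13, -0.14 and 0.14 for Tnfsf14, -0.066 and 0.15 for Tnfrsf1b, and -0.25 and 0.049 for the log2 ratio of Tnfrsf1b to Tnfrsf1a. At an equal sum per library, which moved the median of all genes to 0.072, Tnfsf13 was at 0.015 and 1 pathway gene, Cxcl10, was higher. Over all genes, 72 higher and 57 lower calls became 22 and 10 with no filter on low values, 248 and 234 with array weights, 36 and 25 with the replicate block, 152 and 129 with both libraries low in resident cavity macrophage genes left out, and 26 to 78 higher and 14 to 62 lower with each library left out in turn (fewest without WT replicate 3). Pathway genes called were 6 higher and 3 lower with array weights, 1 higher (Tnfrsf14) and 2 lower (Csf1 and Tnfrsf23) with those libraries left out, and 0 to 1 in each direction with 1 library left out. The causes were not tested.

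The labels give both groups replicate numbers without saying that a number is shared by a day or litter. Deviations from the group means of same-numbered libraries correlated at 0.086, 0.204 and 0.090, and 6 of 6 libraries correlated best with their own number, which is a hint from the data, not the design. These matches come from the same few correlations and are not 6 independent observations. With the replicate block no member was called (for Tnfsf9 an adjusted p of 0.081 from limma). Unknown depth and 3 libraries per group limit the fold changes that could be seen, and members at about 1 FPKM are the least certain.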
